A study of Mus musculus with 8 samples.

Results

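Ribosomal protein genes of the mouse ovary were followed here in 4 libraries labelled WT and 4 labelled GOAT KO. A gene was a member when its symbol had the form Rps or Rpl with a number, with or without a following a, x or y, and with or without an l for "like", or when it was *Rpsa*, *Rplp0*, *Rplp1*, *Rplp2* or *Fau*. Symbols marked -ps, the suffix of a pseudogene, were left out. Among the 45583 symbols counted, 90 were members, 38 of the small and 52 of the large ribosomal subunit, and 10 of the 90 were paralogs whose symbol ends in l, l1 or l2. Of the 90, 85 passed the filter on low counts and were tested. The 5 others were the paralogs *Rpl3l*, *Rpl10l*, *Rps12l1* and *Rps12l2* and the copy *Rps3a2*. In the annotation used here (GENCODE vM21, build GRCm38) 85 members are protein coding, *Rps4l*, *Rps12l1*, *Rps3a2* and *Rps3a3* are processed pseudogenes, and *Rps12l2* has no entry.

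Each library was made from the ovary RNA of 1 mouse, 3 weeks old, of the C57/Bl6 strain, and the whole ovary holds oocytes beside granulosa, theca and other cells. WT and GOAT KO animals were littermates from heterozygous parents, and the GOAT KO animals carried a deletion of *Mboat4*, which encodes ghrelin-O-acyltransferase (GOAT), the enzyme that attaches a fatty acid to the hormone ghrelin. The question of the comparison was how the juvenile ovary's transcripts differ without this enzyme. *Mboat4* had 1, 1, 1 and 3 counts in the libraries labelled WT 1118, 1119, 1120 and 1121, against 5, 7, 7 and 8 counts in the libraries labelled GOAT KO 1139, 1140, 1141 and 1146. These few counts are higher under the GOAT KO label. Which part of the gene the allele removes was not given in the labels, and reads outside that part would check nothing, so the counts are no check of the labels. The study also examined *Mboat4* in GOAT KO ovaries by PCR, a measurement not analysed here. Every direction here is therefore one between libraries as labelled.

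Ribosomal proteins are the protein part of the ribosome, whose small subunit reads the mRNA and whose large subunit joins the amino acids. Each ribosome holds 1 copy of most of them, and a growing cell spends much of its transcription on their mRNAs. Most of these mRNAs begin with a C followed by a run of C and U, the terminal oligopyrimidine motif, through which the kinase mTORC1 sets their translation. In the ovary the demand is high in growing oocytes and in dividing granulosa cells. Their short, abundant mRNAs were also copied back into the genome many times, which left processed pseudogenes, intron-less copies of the spliced mRNA.

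The start sites of the members showed the motif more often than start sites at large. RefSeq start sites (build GRCm38.p6) were found for 65 members, 77 sites in all. At 14 of these 77 sites (18.2%) the first base was C and opened an unbroken run of at least 5 C or T, against 2.51% of all 32851 start sites. A run of at least 8 C or T within the 41 bases centred on the start, on the strand of the gene, occurred at 42.9% of the members' sites and at 16.5% of all sites. The windows below run from 10 bases before the annotated start, and capitals mark the run of C and T that opens there. The first 4 carry a run and the last 2 carry none. *Rps21*, with a run, and *Rpl37* and *Rpsa*, without one, are shown because they were called higher in GOAT KO libraries.
Fau (chr19:6057937-6057961, plus strand): gcccccacttCTTCCTCTTTCTTga
Rps6 (chr4:86857353-86857377, minus strand): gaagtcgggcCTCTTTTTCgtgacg
Rplp2 (chr7:141447641-141447665, plus strand): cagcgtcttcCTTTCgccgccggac
Rps21 (chr2:180257369-180257393, plus strand): aggacccgccCTCCTgcccaatagt
Rpl37 (chr15:5116603-5116627, plus strand): cctgggcggaagcttatccacagga
Rpsa (chr9:120127756-120127780, plus strand): ttatttaaggacgtcatttccggcc
A window without a run says only that these letters do not open at the annotated base.

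The 90 members took between 1.13% and 1.29% of the counts of a library, and the libraries held between 16147216 and 19481798 counts on genes. The share was 1.20% ± 0.0710 over the WT libraries and 1.23% ± 0.0347 over the GOAT KO libraries (SD, n = 4 each), and the groups overlapped. The counts were very unequally spread over the members. *Rpl4*, *Rps3* and *Rpl8* together took 30.2% of all counts on members, and 26 members averaged fewer than 100 counts per library, 19 of them protein-coding genes that are no paralogs. Levels of separate genes are compared as RPKM, the CPM (counts per library size scaled by TMM, times 1000000) divided by the length of 1 annotated main transcript in kilobases. Among the highest mean levels over the 8 libraries were 1142 RPKM for *Rpl8* and 1052 RPKM for *Rpl4*. The lowest were 0.0208 for *Rpl3l*, 0.107 for *Rps12l1* and 0.154 for *Rps3a2*. *Rps6*, the small subunit protein that is phosphorylated downstream of mTORC1, had 12 to 36 counts in the libraries labelled WT and 19 to 41 in those labelled GOAT KO, a level of 1.79 RPKM. *Fau*, the precursor of a ubiquitin-like protein and of a small subunit protein, had 25 to 61 counts. *Rps27a*, which encodes ubiquitin fused to a small subunit protein, had 129 to 243 counts. *Rpl5* and *Rpl11*, which bind the 5S ribosomal RNA of the large subunit, had 418 to 755 and 115 to 239 counts. These levels and their order depend on the length used. On all exons of a gene merged, *Rpl22* had 115 RPKM in place of 708, *Rps15a* 19.2 in place of 188, *Rps3* 244 in place of 573, *Rpl8* 715 in place of 1142 and *Rpl4* 806 in place of 1052, while *Rplp1* had 942 RPKM on both and was then the highest.

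Members with more sequence in common with other genes stood lower. Each member's transcript was divided into all words of 50 bases, the length of the reads, and the words that also occur in a transcript of another annotated gene were counted. Among the 80 members that are no paralogs, the 7 with under 20% of their words shared had a median level of 573 RPKM. The 17 members with 20 to 40% shared had a median of 136, the 16 with 40 to 60% a median of 34.1, the 21 with 60 to 80% a median of 15.9, and the 19 with 80 to 100% a median of 12.6. Over the 89 members with an annotated transcript the Spearman correlation of level and shared words was -0.366, given as a description, since all points come from the same libraries and overlapping pseudogene families. The annotation holds 1900 pseudogenes that match 84 members over at least 50% of the copy with at least 80% identity, and 1205 of them are listed in the count table. Of the counts summed over a member and its copies, 98.4% lay on the 2 copies of *Fau*, 99.3% on the 10 copies of *Rps29*, 84.4% on the 22 copies of *Rps6*, and 0.197% on the 3 copies of *Rpl23*. For *Fau*, *Rps29* and *Rps6*, then, the count given to the gene itself was a small part of the counts on its sequence family. How the authors' counting treated reads that match several places is not given in the sources used here, and its part in these levels was not tested.

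**Figure D1:**
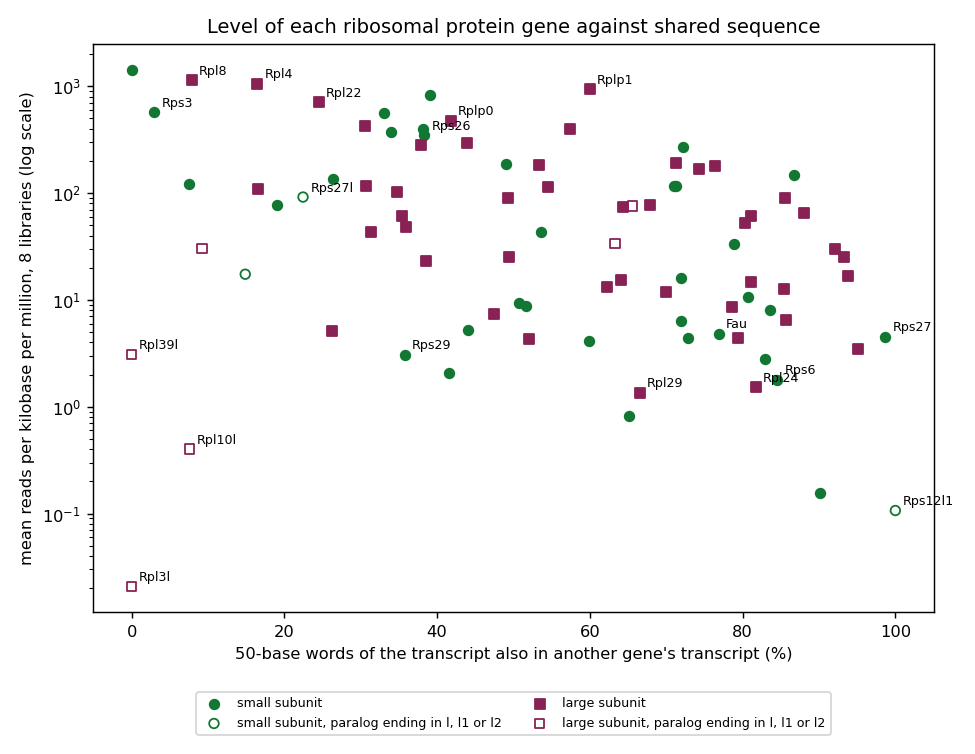
Each point is 1 ribosomal protein gene with an annotated transcript. The horizontal axis gives the percentage of its 50-base words that occur in another gene's transcript and the vertical axis, on a log scale, its mean RPKM over 8 libraries. Rpl8 and Rpl4 are among the highest, with under 20% shared words, and open symbols mark the paralogs ending in l, l1 or l2.

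Reads across introns gave a second readout, since a processed copy holds no intron. The annotated main transcripts of 84 members have 372 introns. Of 242 introns whose 50-base word across the splice site occurs in another gene's transcript, 6 (2.48%) had any read in the 8 libraries. Of 130 introns whose word occurs in no other gene, 47 (36.2%) had a read and 34 had at least 80. Across all its annotated introns *Rps3*, of the small subunit, had 49609 junction reads, 323 per 1000 gene counts. 1 of its introns had 987 and 983 reads in WT 1119 and 1120 and 0 in the other 6 libraries, and its total was high in every library. *Rplp0*, the stalk protein of the large subunit, had 11393 counts per library on average and 3 junction reads in all 8 libraries together. *Rpl30*, *Rps26* and *Rps4x* had no junction read. The pieces below run over the splice site, in the 5' to 3' direction of the gene, with the 20 bases of the downstream exon in capitals.
Rps3 (intron 2, chr7:99482355-99482569, minus strand, 21901 reads): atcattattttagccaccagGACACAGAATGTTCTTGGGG
Rps21 (intron 4, chr2:180258058-180258229, plus strand, 847 reads): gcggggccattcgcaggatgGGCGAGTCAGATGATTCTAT
Rplp1 (intron 1, chr9:61913963-61914356, minus strand, 5563 reads): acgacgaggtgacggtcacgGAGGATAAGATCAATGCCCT
Rplp0 (intron 2, chr5:115559889-115560740, plus strand, 0 reads): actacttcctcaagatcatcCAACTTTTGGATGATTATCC
Rps6 (intron 2, chr4:86856357-86856727, minus strand, 0 reads): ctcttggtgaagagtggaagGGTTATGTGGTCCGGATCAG
The 50-base word over the *Rps6* site occurs in 5 other genes, and the words over the 4 sites above it in none. For *Rplp0* a site with a word of its own thus had no read in libraries with 9655 to 13095 counts on the gene.

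Several members had junction reads in some libraries and almost none in others, with gene counts that varied far less. Of 16 members with at least 80 junction reads in a library, 5 (31.2%) had a library with less than 1/10 of the highest, against 37 of 6983 genes (0.53%) and 0 of 43 mitochondrial ribosomal protein genes. *Rplp1*, a stalk protein of the large subunit, had 2, 905, 1039 and 0 junction reads in WT 1118, 1119, 1120 and 1121, against 869, 890, 951 and 907 in GOAT KO 1139, 1140, 1141 and 1146. Its gene counts were 7175 to 9319, so the 2 libraries near 0 were not low in the gene count. *Rps15*, of the small subunit, had 0 junction reads in WT 1118 and 73 to 163 in the other 7 libraries. *Rps10*, of the small subunit, had 1 junction read in GOAT KO 1139 and 63 to 214 in the others, and its gene counts were 209 to 502, with 255 in GOAT KO 1139. Thus *Rplp1* was near 0 in 2 libraries labelled WT, and *Rps15* and *Rps10* in 1 library each. *Rps21*, of the small subunit, had 0 junction reads in all 4 libraries labelled WT and in GOAT KO 1139, 7 in GOAT KO 1140, 467 in GOAT KO 1141 and 374 in GOAT KO 1146.

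**Figure D2:**
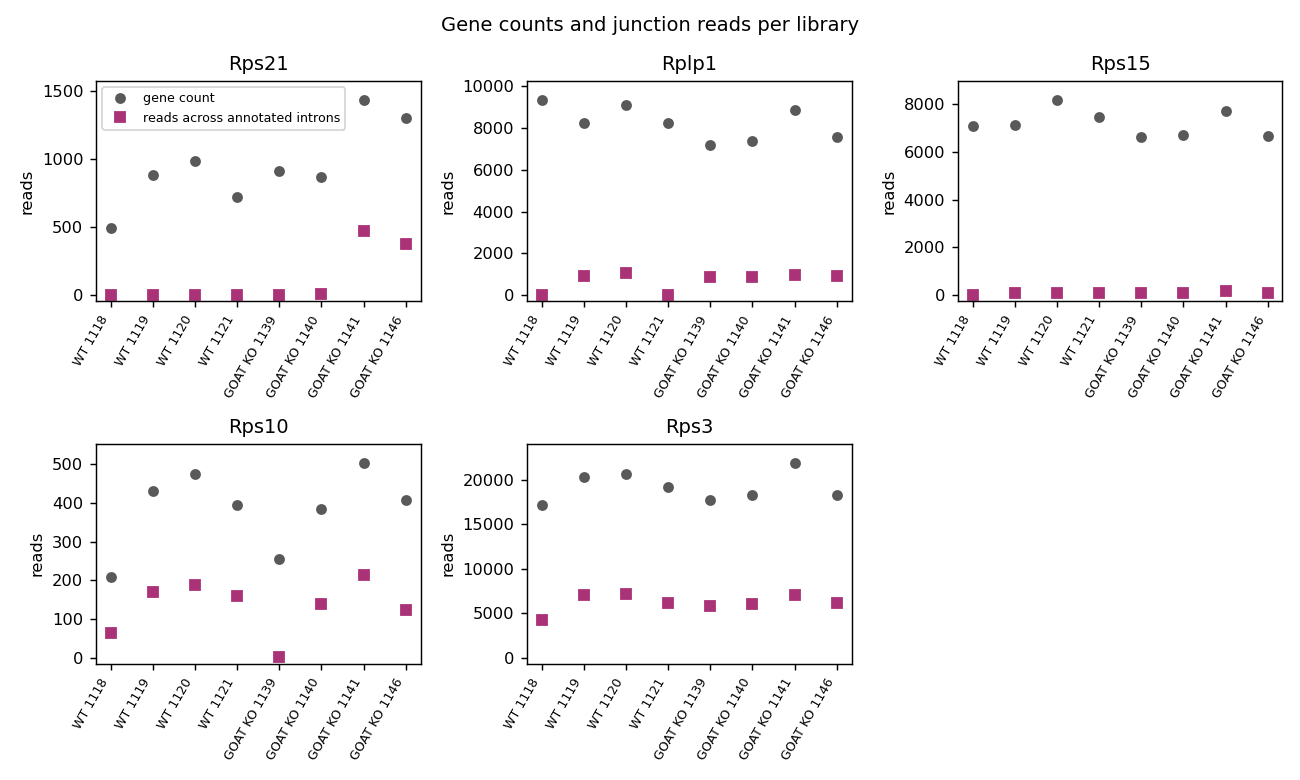
Gene counts (circles) and reads across annotated introns (squares) in each of the 8 libraries, both in reads on a linear axis, for 4 members whose junction reads differed over 10-fold between libraries and for Rps3. Rps21 has junction reads chiefly in GOAT KO 1141 and 1146, whereas Rps3 has 4285 to 7184 in every library.

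One library stood apart in these genes. With levels as log2 of CPM plus 0.5, the library labelled WT 1118 was the lowest of the 8 for 47 of the 85 tested members (55.3%), against 23.5% of all 16601 genes tested. It was the highest of the 8 for 10 members (11.8%, against 20.6% of genes). The libraries most often highest were WT 1120, for 28 members (32.9%, against 19.8% of genes), and GOAT KO 1141, for 24 members (28.2%, against 11.7%). The median difference of WT 1118 from the gene's median of 8 libraries was -0.25 on the log2 scale, and in the other 7 libraries this median was between -0.09 and 0.08. Most members lay below their median in it, while others lay above. In WT 1118, 17 members lay more than 1.5-fold below their median and 4 more than 1.5-fold above. The shares of all genes past these limits are not given here. *Rpl37* was at 0.238 of its median and *Rpl39* at 0.464, both small proteins of the large subunit. *Rps26* was at 1.84 of its median, *Rpl41* at 1.81, *Rpl35a* at 1.56 and *Rpl23a* at 1.53. *Rps26* had 396 CPM in WT 1118 and 195 to 238 CPM in the other 7 libraries. The size of the difference, without its sign, had a median of 0.29 over the members in WT 1118, 0.13 over all genes tested and 0.13 over the tested mitochondrial ribosomal protein genes. Over the 85 members the Spearman correlation of this difference was 0.0919 with shared words, 0.0619 with transcript length and 0.0833 with GC content. WT 1118 also had the lowest share of reads mapped to the genome, 85.9% against 86.3% to 87.0%, the highest summed oocyte markers, 1256 CPM against 1020 to 1220 over 10 genes, and the lowest summed granulosa markers, 5122 CPM against 5527 to 6645 over 10 genes. In whole ovaries fewer cells of a type and less RNA per cell cannot be told apart, and the part of these measures in the members' values was not tested.

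**Figure D3:**
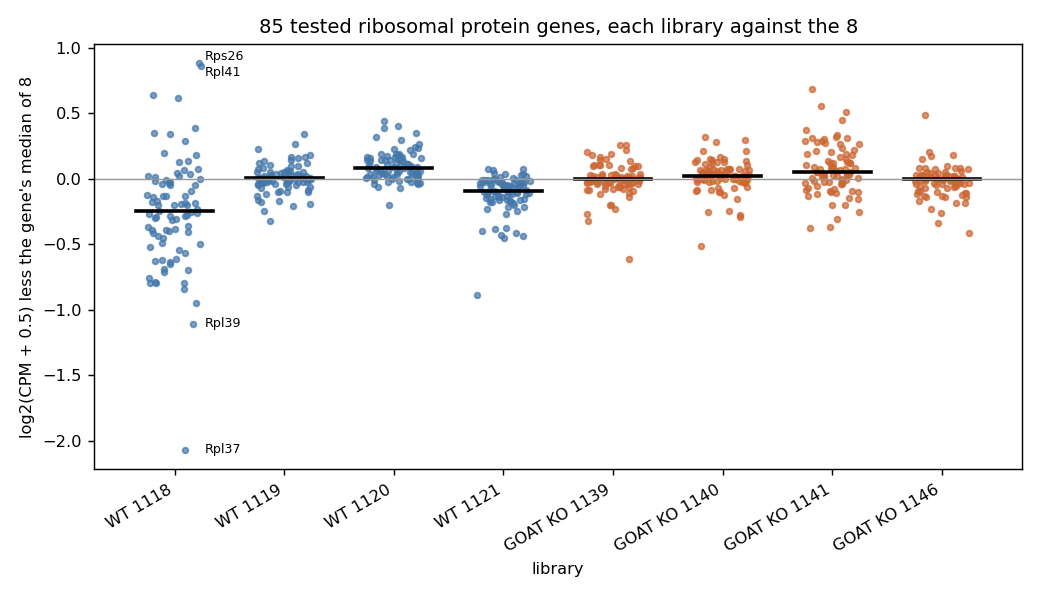
Each point is 1 of the 85 tested members in 1 library, as log2(CPM + 0.5) less that gene's median of the 8 libraries, and black bars are medians over members. The bar of WT 1118 lies at -0.25, and its points reach from -2.07 for Rpl37 to 0.88 for Rps26.

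Few members differed between the labels. The test was edgeR's quasi-likelihood test over all 16601 genes. A gene counted as called when its log2 fold change exceeded 0.3 in size and its p, before adjustment, was under 0.05. Of the 85 tested members 5 were called (5.88%), against 2.85% of all genes tested. The 4 called higher in GOAT KO libraries were *Rpsa*, *Rps21*, *Rpl37* and *Rpl30*, with 1.58% of all genes called higher. The 1 called lower was *Rpl23a*, with 1.27% of all genes called lower. With a log2 fold change over 0.5 in size, 2 members were called, *Rpl37* and *Rps21*, against 1.67% of all genes. After adjustment over all genes by the method of Benjamini and Hochberg no member was under 0.05, and 4 of all genes were (0.0241%). The adjusted p of each of the 85 members was at least 0.983. Without adjustment and with no limit on the fold there were 7 members under 0.05, the 5 above with *Rpl23* and *Rpl7a*, against 4.62% of all genes, and DESeq2 and limma-voom each called 4 members. The median log2 fold change was 0.06 over the members and -0.00035 over all genes tested, and 58 of 85 members (68.2%) lay above 0 against 49.9% of genes. Without WT 1118 the members' median was 0.0013 and 43 of 85 lay above 0, against 49.4% of genes. In that fit 3 members were called, all higher (3.53%, against 2.27% of genes called and 1.36% called higher). With WT 1118, WT 1120 and GOAT KO 1139 all left out, a set chosen after these values were seen, the members' median was 0.06 and 60 of 85 lay above 0 (70.6%, against 50.6% of genes). The median was thus near 0 without WT 1118 alone and not in the smaller set that also lacks it.

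*Rpsa* (chr9:120127689-120132369) encodes a small subunit protein that is also known as the laminin receptor. It had 7.25, 9.95, 9.88 and 7.91 CPM in WT 1118, 1119, 1120 and 1121, against 11.9, 10.9, 12.7 and 10.9 CPM in GOAT KO 1139, 1140, 1141 and 1146. All libraries labelled GOAT KO lay above all those labelled WT, which held for 5 members (*Rpsa*, *Rpl37*, *Rpl30* and *Rpl7a* among them) and for 1.64% of all genes in this direction. The means were 8.74 ± 1.38 and 11.6 ± 0.907 CPM (SD, n = 4 each). The log2 fold change was 0.41 (SE 0.13), with p = 0.00797 in edgeR's test and p = 0.0286 in a two-sided exact permutation test of the CPM, the smallest that 4 against 4 libraries can give. Adjusted over all genes, edgeR gave an adjusted p = 0.983, as it did for the 6 other members under 0.05 before adjustment. *Rpsa* was called in all 8 fits that left out 1 library, with log2 fold changes of 0.33 to 0.47, and also with the reads of its 18 copies added, with 0.31. The gene itself held 117 to 249 counts per library, and the copies 69.7% of the summed counts.

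*Rps21* (chr2:180257377-180258445) had 30.5, 48.8, 54.0 and 39.4 CPM in WT 1118, 1119, 1120 and 1121, against 54.4, 52.9, 73.0 and 75.3 CPM in GOAT KO 1139, 1140, 1141 and 1146. GOAT KO 1141 and 1146 lay above the rest, and GOAT KO 1139 and 1140 lay close to the highest library labelled WT. The log2 fold change was 0.57 (SE 0.17), with p = 0.00799 in edgeR's test and p = 0.0571 in the exact permutation test. The same 2 libraries held the junction reads over the splice site printed above. With the junction reads taken off the gene count, which was chosen after these values were seen and assumes that each was counted once on the gene, the counts were 493, 878, 984 and 723 in WT and 910, 858, 960 and 922 in GOAT KO. On these counts the means were 43.2 ± 10.4 and 52.4 ± 2.32 CPM (SD, n = 4 each), and the log2 fold change was 0.28, with p = 0.0811 in edgeR's test and p = 0.171 in the exact permutation test. Since no WT library had junction reads to take off, this step could lower the fold change and not raise it. *Rps21* was called in all 8 fits that left out 1 library, with log2 fold changes of 0.43 without WT 1118 to 0.69 without WT 1120, and with its copies added, at 0.44.

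*Rpl37* (chr15:5116645-5119140) had 8.55, 31.6, 36.9 and 28.02 CPM in the libraries labelled WT and 43.3, 38.1, 60.7 and 40.2 CPM in those labelled GOAT KO, in the same order of libraries. WT 1118 was low and GOAT KO 1141 high, and the groups did not overlap. The log2 fold change was 0.79 (SE 0.33), with p = 0.0357 in edgeR's test and p = 0.0286 in the exact permutation test. It was 0.50 without WT 1118 and still called. It was no longer called without GOAT KO 1141, at 0.62, or without WT 1121, at 0.82. Its junction reads were 31 in WT 1121, 50 in GOAT KO 1139, 2 in GOAT KO 1141 and 0 in the other 5 libraries. Its 16 counted copies held 78.2% of the summed counts, with 2738, 2187, 2458 and 2235 counts in WT and 2005, 2218, 2432 and 2051 in GOAT KO. With the copies added the log2 fold change was 0.06 (SE 0.07), and *Rpl37* was not called. WT 1118 was lowest on the gene itself and highest on the copies.

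*Rpl30* (chr15:34440505-34443640) had 56.4, 100.96, 107 and 94.3 CPM in the libraries labelled WT and 115, 115, 122 and 112 CPM in those labelled GOAT KO. All GOAT KO values lay above all WT values, closely for 3 of the WT libraries and widely for WT 1118. The log2 fold change was 0.37 (SE 0.16), with p = 0.0381 in edgeR's test and p = 0.0286 in the exact permutation test. Without WT 1118 it was 0.20, under the fold limit. Without any 1 of the GOAT KO libraries, or without WT 1121, it was 0.34 to 0.39 and not called. Its copies held 0.969% of the summed counts.

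*Rpl23a* (chr11:78180932-78183584) had 5.33, 3.78, 4.17 and 3.16 CPM in the libraries labelled WT and 2.81, 3.30, 2.97 and 3.31 CPM in those labelled GOAT KO. The groups overlapped, with WT 1118 the highest library. The log2 fold change was -0.40 (SE 0.18), with p = 0.0421 in edgeR's test and p = 0.0857 in the exact permutation test. Without WT 1118 it was -0.26 and not called. With the copies added, 51.6% of the summed counts, it was -0.11 and not called. It was also not called without WT 1120 or without any 1 of the GOAT KO libraries, with values of -0.44 to -0.36.

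*Rpl23* and *Rpl7a*, both of the large subunit, missed the fold threshold. *Rpl23* had 140, 111, 116 and 110 CPM in the libraries labelled WT and 100, 111, 84.9 and 97.2 CPM in those labelled GOAT KO in the same order. Its log2 fold change was -0.28 (SE 0.10), and -0.20 without WT 1118, with p = 0.0142 for the 8 libraries in edgeR's test and p = 0.0857 in the exact permutation test. *Rpl7a* had 49.0, 53.4, 53.5 and 48.6 CPM in the libraries labelled WT and 58.0, 58.7, 67.1 and 54.3 CPM in those labelled GOAT KO. Its groups did not overlap, and its log2 fold change was 0.22 (SE 0.08), with p = 0.0143 in edgeR's test and p = 0.0286 in the exact permutation test. *Rps26* had a log2 fold change of -0.35 (SE 0.17, not called), which was -0.09 without WT 1118.

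**Figure D4:**
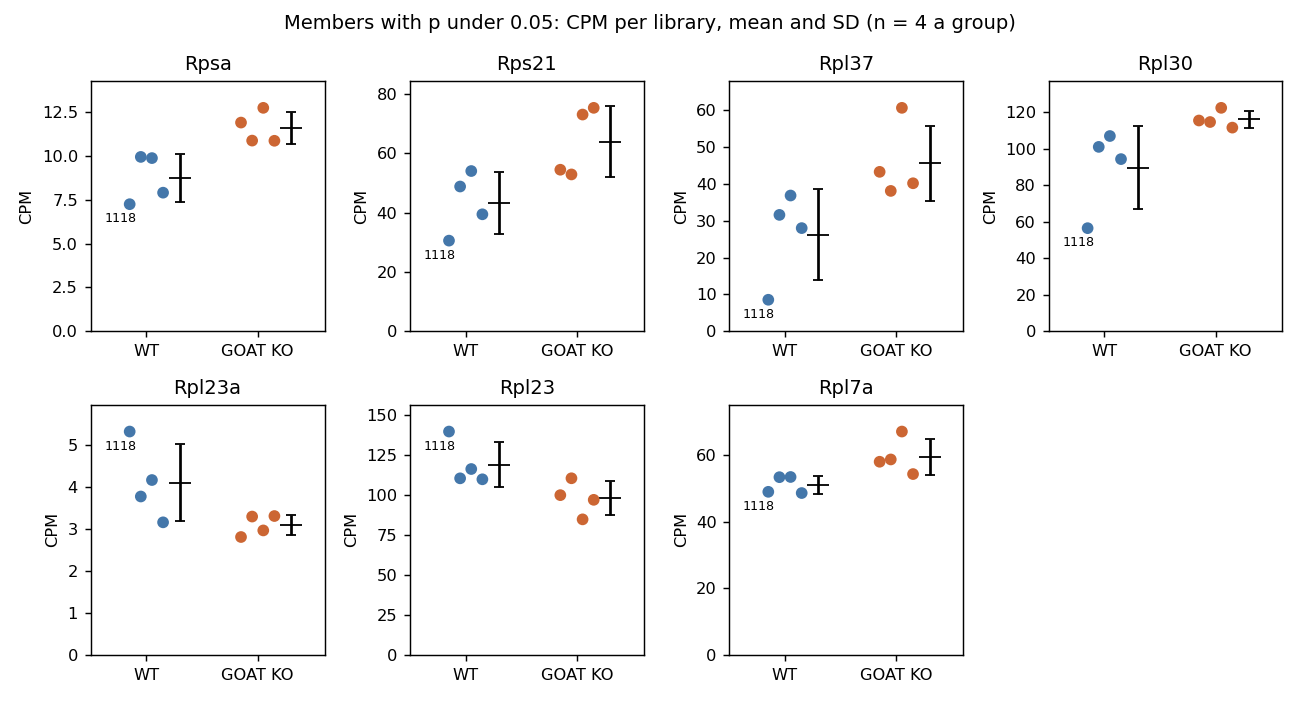
CPM (vertical axis, from 0) in each of 4 libraries labelled WT and 4 labelled GOAT KO for the 7 members with an unadjusted p under 0.05, with the mean and SD of each group (n = 4) as bars at the right. WT 1118, marked, is the lowest library for Rpsa, Rps21, Rpl37 and Rpl30 and the highest for Rpl23a and Rpl23.

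The number of members called depended on which libraries were left out. The study set aside 1 library of each group but did not name them, and WT 1120 and GOAT KO 1139 are left out here on an inference about which these were. Without both, 16 of 85 members were called (18.8%), against 4.77% of 16641 genes. Of the 16, 15 were higher in GOAT KO libraries, against 2.55% of genes, and 1 was lower, against 2.21%. Of the 85, 65 lay above 0 (76.5%, against 50.3% of genes). No member had an adjusted p under 0.05 in this fit, the values of the 16 lying between 0.218 and 0.525, while 20 of all genes did (0.12%). Of the 5 members called with 8 libraries, 4 were called with the 6. Among the 12 others, the log2 fold changes with the 6 libraries were 0.68 for *Rps29*, 0.42 for *Rpl11* and *Rpl37a*, 0.40 for *Rpl22l1*, 0.39 for *Rps23*, 0.37 for *Rpl32*, 0.33 for *Rps15a*, 0.32 for *Rps20*, 0.31 for *Rpl26*, 0.30 for *Rps14* and -0.30 for *Rpl23*. With all 8 libraries none of these 12 was called. WT 1118 was the lowest of all 8 libraries for 14 of the 15 higher members, and with WT 1120 left out it was 1 of 3 libraries labelled WT. With the 5 libraries that remain when WT 1118 is left out as well, 5 members were called (5.88%, against 3.54% of genes called and 1.86% called higher). These were *Rpsa*, *Rps21*, *Rpl37*, *Rps23* and *Rps29*, each of them higher in GOAT KO libraries and each among the 16. With 1 library left out at a time, 14 members were called without WT 1120 (13 higher and 1 lower, against 5.16% of genes), 8 without WT 1119 (5 higher and 3 lower, against 2.84% of genes), and 3 without WT 1118 or GOAT KO 1141 (against 2.27% and 2.54%). Without WT 1121, 5 were called (2 higher and 3 lower, against 3.01%), and without GOAT KO 1139, 1140 or 1146 4 each (against 3.35%, 3.03% and 2.98%). The number of members called thus moved most with WT 1120.

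The balance of small and large subunit genes overlapped between the groups. With the paralogs left out, the CPM were summed over 34 small and over 46 large subunit genes, and the log2 of small over large was -0.50, -0.37, -0.37 and -0.40 in WT 1118, 1119, 1120 and 1121, against -0.38, -0.36, -0.32 and -0.40 in GOAT KO 1139, 1140, 1141 and 1146. WT 1118 was the lowest and the groups overlapped. The means were -0.41 ± 0.06 and -0.37 ± 0.03 (SD, n = 4 each), and their difference, 0.04, was 0.01 without WT 1118. Over all genes tested 2.85% were called and 49.9% lay above 0. Of 35 tested small subunit members 2 were called (5.71%), both higher, and 24 lay above 0 (68.6%), with a median log2 fold change of 0.09. Of 50 tested large subunit members 3 were called (6%), 2 of them higher, and 34 lay above 0 (68%), with a median of 0.06. Among the members highest per length, *Rps15* of the small subunit had a log2 fold change of -0.09, and *Rpl8* and *Rpl4* of the large subunit had 0.06 and -0.06, none called. The stalk proteins of the large subunit, *Rplp0*, *Rplp1* and *Rplp2*, had log2 fold changes of 0.06 (SE 0.06), -0.16 (SE 0.08) and 0.11 (SE 0.10), none called. *Rps6*, *Fau* and *Rps27a* had 0.04, -0.20 and -0.02, and *Rpl5* and *Rpl11* 0.05 and 0.27, none called with 8 libraries.

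Most paralogs ending in l, l1 or l2 are genes for proteins related to a ribosomal protein, several of them known for use in particular tissues, while *Rps4l* and *Rps12l1* are annotated as pseudogenes. The share of their 50-base words found in other genes was 0% for *Rpl39l* and *Rpl3l* and 65.6% for *Rpl22l1*, so short reads can tell some of them apart better than others. The coding sequence of *Rpl39l* (chr16:10170226-10174911), a gene known for its role in the testis, is identical to that of *Rpl39* at 130 of 153 bases (84.97%). That of *Rps27l* (chr9:66946086-66949516) is identical to that of *Rps27* at 192 of 252 bases (76.2%). The 2 pairs are printed with the bases that differ between parent and paralog in capitals. Within the coding sequence these bases separate a read of one from a read of the other. Reads from the rest of the transcripts are not covered by them.
Rpl39: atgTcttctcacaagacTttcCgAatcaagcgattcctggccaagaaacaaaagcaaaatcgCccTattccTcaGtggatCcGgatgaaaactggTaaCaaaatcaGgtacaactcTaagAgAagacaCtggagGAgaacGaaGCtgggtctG
Rpl39l: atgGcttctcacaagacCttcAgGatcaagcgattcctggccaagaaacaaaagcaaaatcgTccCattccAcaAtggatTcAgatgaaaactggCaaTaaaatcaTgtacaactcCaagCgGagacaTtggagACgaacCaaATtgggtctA
Rps27: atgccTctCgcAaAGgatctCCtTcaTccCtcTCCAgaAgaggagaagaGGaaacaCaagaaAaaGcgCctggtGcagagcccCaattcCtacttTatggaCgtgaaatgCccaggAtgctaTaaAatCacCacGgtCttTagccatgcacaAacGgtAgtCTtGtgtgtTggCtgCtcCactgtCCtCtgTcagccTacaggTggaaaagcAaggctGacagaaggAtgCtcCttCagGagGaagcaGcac
Rps27l: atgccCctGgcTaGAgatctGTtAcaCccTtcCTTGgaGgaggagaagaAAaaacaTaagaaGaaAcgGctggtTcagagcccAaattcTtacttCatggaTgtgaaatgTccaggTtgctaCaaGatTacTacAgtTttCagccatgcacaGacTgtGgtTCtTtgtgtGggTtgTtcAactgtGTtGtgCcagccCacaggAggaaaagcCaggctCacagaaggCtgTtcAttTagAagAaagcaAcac
The coding sequences of *Rpl10l*, *Rpl36al*, *Rpl3l*, *Rpl22l1* and *Rpl7l1* are 84.7%, 87.7%, 73.2%, 66.9% and 53.0% identical to those of *Rpl10*, *Rpl36a*, *Rpl3*, *Rpl22* and *Rpl7*. *Rps12l1*, an intron-less copy, holds the whole coding sequence of *Rps12* without a difference, so its 0 to 2 counts per library cannot be told apart from those of *Rps12*.

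Per kilobase of transcript, 5 of the 7 paralogs with a ratio stood below their parent and 2 above. *Rps27l* had a level of 91.8 RPKM against 4.51 RPKM for *Rps27*, a median ratio of 21.5 over the 8 libraries. *Rps27* itself had 23 to 32 counts per library, and nearly all of its words were shared with other genes. The ratio is therefore one of counted reads, and its relation to the transcripts was not tested. *Rpl36al* stood 2.86-fold above *Rpl36a*, which had 85.5% of its words shared. The 6 counted copies of *Rpl36a* held 94.2% of its summed counts, 1262 to 1913 counts per library, against 186 to 382 counts on *Rpl36al*, so the order of the counts turned with the copies added. *Rpl22l1* was at 0.109 of *Rpl22*, *Rpl7l1* at 0.169 of *Rpl7*, *Rps4l* at 0.0645 of *Rps4x*, *Rpl39l* at 0.0274 of *Rpl39* and *Rpl10l* at 0.0127 of *Rpl10*. With 33 to 62 counts per library *Rpl39l* was low but present, and 45 reads crossed its introns. *Rpl3l*, the paralog of striated muscle, had 1 and 3 counts in WT 1118 and 1119 and 0 in the other 6 libraries, which at this depth allows up to 3 counts in each. *Rpl10l* had 4 to 13 counts. *Rps12l2* had 0 to 2 counts, and its sequence was not used here.

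With 8 libraries 0 of 6 tested paralogs were called in edgeR's test, against 2.85% of all genes, and 0 without the filter on low counts. All 6 lay above 0, against 49.9% of genes, with log2 fold changes of 0.23 for *Rpl36al*, 0.21 for *Rps27l* and *Rpl22l1*, 0.08 for *Rpl39l* and *Rpl7l1* and 0.05 for *Rps4l*, and standard errors of 0.10 to 0.19. Without WT 1118 their range was -0.01 to 0.12 and 0 were called. Without WT 1120, 3 of the 6 were called, all higher, *Rpl22l1* at 0.35, *Rpl36al* at 0.34 and *Rps27l* at 0.34, against 5.16% of genes. Of their parents, *Rps4x* had 0.14, *Rpl39* 0.15, *Rpl10* 0.10, *Rps27* 0.10, *Rps12* 0.09, *Rpl22* 0.04, *Rpl36a* -0.02, *Rpl7* -0.02 and *Rpl3* -0.08, none called. The log2 ratio of paralog to parent overlapped between the groups for all 7 pairs. It was 1.27 ± 0.35 in WT and 1.55 ± 0.15 in GOAT KO for *Rpl36al* to *Rpl36a* and -5.02 ± 0.69 and -5.19 ± 0.24 for *Rpl39l* to *Rpl39* (SD, n = 4 each). In WT 1118 the ratio of *Rpl39l* to *Rpl39* was -4.03, against -5.65 to -4.91 in the other libraries.

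**Figure D5:**
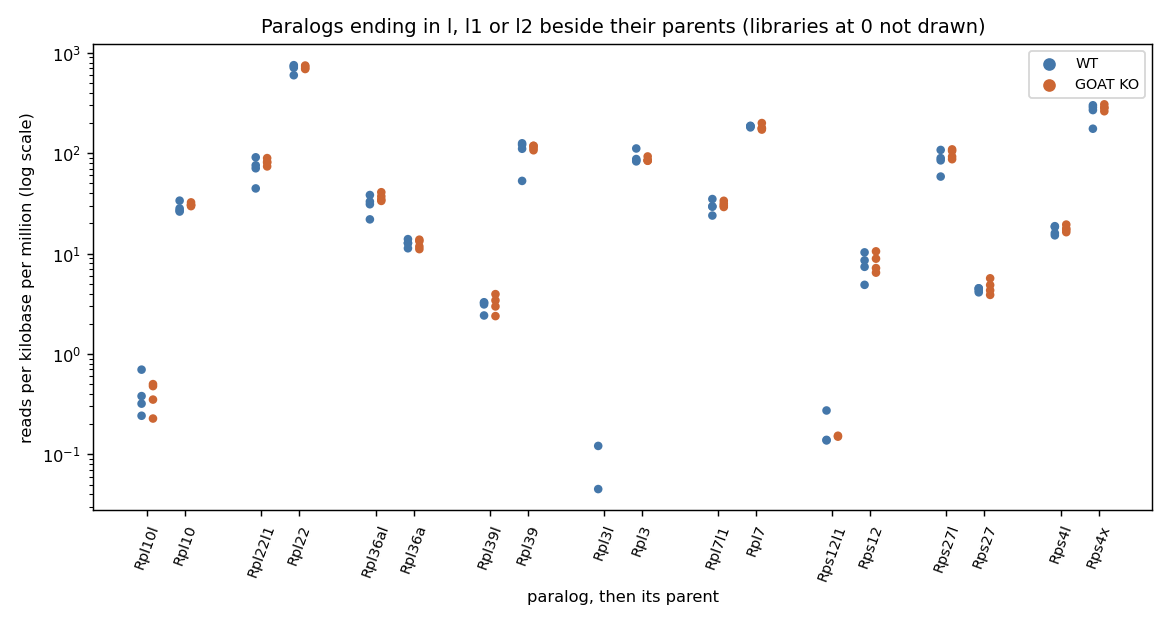
RPKM (vertical axis, log scale) of each paralog ending in l, l1 or l2 beside its parent, with 1 point per library labelled WT or GOAT KO and libraries at 0 left out. Rps27l and Rpl36al lie above their parents and the others below. The 2 groups overlap for every gene with points in both, and Rpl3l has points only in WT 1118 and 1119.

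Junction reads could be tested for 19 members among 10134 genes. In this edgeR fit 1 member was called (5.26%, against 3.22% of all genes), and 0 of all genes (0%) had an adjusted p under 0.05, with 425 genes under 0.05 before adjustment. *Rpl7l1*, a paralog of the large subunit protein L7, had 17, 19, 26 and 19 junction reads in WT 1118, 1119, 1120 and 1121, against 22, 57, 66 and 62 in GOAT KO 1139, 1140, 1141 and 1146, a log2 fold change of 1.33 (SE 0.32, adjusted p = 0.942). All GOAT KO libraries but 1139 lay above all WT libraries. The excess lay on 2 introns with reads in some libraries and none in the others, 1 with 38 reads in each of GOAT KO 1140 and 1146 and the other with 41 reads in GOAT KO 1141. The 1 intron with reads in every library had 17, 19, 26 and 19 in WT and 22, 19, 25 and 24 in GOAT KO, and there the groups overlapped. The gene count of *Rpl7l1* did not show it, with 62.3, 76.8, 91.0 and 76.5 CPM in WT and 87.4, 75.8, 78.4 and 82.1 CPM in GOAT KO and a log2 fold change of 0.08 (SE 0.10). *Rps20* had a log2 fold change of 0.28 on junction reads and 0.22 on gene counts, and *Rps24* had -0.22 and -0.01, neither called. *Rps3*, *Rpl8* and *Rpl4*, among those with the most junction reads, had 0.02, 0.11 and -0.22 on junction reads, none called. *Rpsa*, with 3 junction reads in all, and *Rpl30*, with 0, could not be tested this way.

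Of 192 other genes of translation tested 1 was called, where 2.85% of all genes were called and 4.62% had a p under 0.05 before adjustment. Of 41 initiation factor genes tested 0 were called, with 1 under 0.05 before adjustment in edgeR's test and a median log2 fold change of -0.02, and DESeq2 called 1 gene over all the lists of this paragraph. Of 16 elongation factors and partners 1 was called, *Tpt1*, whose mRNA carries the same start motif as those of ribosomal proteins. *Tpt1* had 45.6, 34.0, 32.2 and 29.6 CPM in the libraries labelled WT and 28.3, 23.6, 26.1 and 30.6 CPM in those labelled GOAT KO in the same order, a log2 fold change of -0.38 (SE 0.13, adjusted p = 0.983). It was -0.23 without WT 1118 and not called. Its direction was opposite to that of the 4 members called higher. Of 42 ribosome biogenesis genes 0 were called, 1 under 0.05 before adjustment, with a median of -0.01. Of 19 genes that bind or control these mRNAs through mTORC1 0 were called, 0 under 0.05 before adjustment, with a median of -0.02. Of 74 mitochondrial ribosomal protein genes 0 were called, 2 under 0.05 before adjustment, with a median of 0.01 and 39 above 0.

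Of the pseudogene copies, 2 are described because the study listed them among its most over-expressed genes in these same libraries. Both were called with 8 libraries, against 2.85% of all genes tested. Since they were picked from these data, their being called is no independent evidence. The share called among the other copies is not given here. *Gm10036*, a processed copy of *Rpl11* on chromosome 18, had 37, 40, 59 and 37 counts in WT 1118, 1119, 1120 and 1121, against 28, 233, 337 and 214 in GOAT KO 1139, 1140, 1141 and 1146. GOAT KO 1139 lay below every WT library and the 3 others far above them. In edgeR's test its log2 fold change was 2.22 with 8 libraries (SE 0.52, adjusted p = 0.983) and 2.75 with the 6 (SE 0.17, adjusted p = 4.33e-05). The 6 leave out GOAT KO 1139, the GOAT KO library that lay below every WT library. *Rpl11* itself had 7.12, 10.1, 12.7 and 10.4 CPM in WT and 11.5, 12.9, 12.2 and 12.03 CPM in GOAT KO, with 4 junction reads in all. *Gm15421*, a processed copy of *Rpl22l1* on chromosome 5, had 44, 143, 191 and 123 counts in WT and 184, 179, 333 and 190 in GOAT KO, with a log2 fold change of 0.84 (SE 0.31, adjusted p = 0.983). WT 1118 was its lowest library, as it was for *Rpl22l1*, which had 24.6 CPM there and 39.0 to 50.2 CPM in the other 7.

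Some markers of cell types were called too, where 1.58% of all genes tested were called higher and 1.27% lower. Of 10 granulosa markers tested 4 were called higher in GOAT KO libraries, *Inhba*, *Fst*, *Fshr* and *Hsd17b1*, and 2 without WT 1118, *Fst* and *Fshr*. The summed level of all 10 was 5122 to 6398 CPM in WT and 5913 to 6645 CPM in GOAT KO. Of 8 leukocyte markers 2 were called lower, *Tyrobp* and *Ctss*, with sums of 51.4 to 71.3 and 45.9 to 57.7 CPM. Of 7 fat markers 6 were called higher, and 1 without WT 1120 and GOAT KO 1139, the latter with a sum of 1079 CPM against 194 to 244 CPM in the other 7 libraries. The members' median difference in GOAT KO 1139 was 0.00 on the log2 scale. Of 10 oocyte markers 1 was called, *Figla*, higher, and of 5 theca and 5 blood markers 0. Of 8 striated muscle markers 3 were called, *Ttn* higher and *Myh6* and *Myh7* lower. Of 6 surface epithelium markers 1 was called, *Krt7*, lower, and of 2 oviduct markers 0. Of the markers of the ovary's own cells, all 10 for oocytes, all 10 for granulosa cells and 5 of 6 for theca cells passed the filter on low counts, and their sums overlapped between the groups. The part of these cell types in the members' values was not tested.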

How the data were processed

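Ovaries were sequenced by the authors on the Illumina HiSeq 2000 as single reads of 50 bases. The authors aligned the reads to GRCm38 with TopHat 2.0.14 and deposited whole, unnormalized read counts for each gene symbol. Also deposited were, per library, counts of reads across each splice junction, and a summary in percent of reads mapped. The counting tool, its use of strand and its treatment of reads with several matches are not given in the sources used here. Transcripts assembled by the authors with StringTie 1.0.4 were not used. Totals per library were 16147216 to 19481798 counts, so a gene with few counts carries a large counting error.

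Members and gene lists were chosen with earlier results of these data known, so no list is independent evidence. The rule's "without any symbol containing ps" was read as the pseudogene suffix -ps. Counts were fitted with edgeR 4.0.16 in R 4.3.3 (TMM, filterByExpr with a minimum of 10 counts in 4 libraries, quasi-likelihood test, all 8 libraries), and p values were adjusted by the method of Benjamini and Hochberg over all genes tested. The SE of a log2 fold change was derived from the F statistic of its test. Libraries of 1 group differed by more than sampling noise (chi-square per gene 4.22 to 27.1), and each came from 1 mouse. Junctions were given to a gene when the annotation holds both splice sites in 1 of its transcripts. Gene models, transcripts and pseudogenes came from GENCODE vM21 (89 of 90 members matched), a later release than the authors' own, and start sites from RefSeq. Levels per kilobase use the length of 1 main transcript per gene. The test was also run on simulated counts, and the outcome is not reported here.

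Genes were named by rule: every paralog and parent, every member called with 8 or 6 libraries, the 5 members per subunit with the smallest p, the 3 highest and 3 lowest levels, 9 members by role, members called in other lists, *Mboat4*, *Gm10036* and *Gm15421*. Members with uneven junction reads, *Rpl41*, *Rpl35a*, *Rps3*, *Rps15* and *Rps24* were named after their values were seen. The values of some members that meet these rules are not reported here. Alternatives were RLE size factors, no TMM, DESeq2 1.42.0, limma-voom 3.58.1, no filter, 6 libraries, each library left out, copies summed and the mean of log2 CPM, and, chosen later, 5 libraries and *Rps21* less its junction reads.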

Additional observations from a re-analysis of the deposited data

Results flagged for a closer look

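In 102 groups of 4 libraries, 4 values lay apart from the other 3 by Dixon's test at the 95% level, which by chance picks about 1 group in 20. *Rps26* was highest in WT 1118 at 396 CPM, against 213 to 238 in the other libraries labelled WT. *Rpl3*, a core protein of the large subunit, was highest in WT 1118 at 150.5 CPM, against 112 to 118. *Rpl3* was also highest in GOAT KO 1141 at 125.3 CPM, against 113 to 115. *Fau* was highest in WT 1120 at 3.29 CPM, against 2.35 to 2.45, which are counts of 60 and of 38 to 45.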

How the results depend on the processing

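No paired analysis was possible because the labels give the 2 groups no shared replicate numbers. Without WT 1120 and GOAT KO 1139, 16 members were called in place of 5, 1 paralog (*Rpl22l1*) in place of 0, and 3 members on junction reads in place of 1. Leaving out 1 library at a time gave 3 to 14 members called (14 without WT 1120, 8 without WT 1119, 3 without WT 1118 or GOAT KO 1141), 0 to 3 paralogs called (3 without WT 1120), 1 to 3 members called on junction reads and 0 to 4 other translation genes called (4 without WT 1120, 2 without GOAT KO 1140, 0 without WT 1118). Junction reads without the filter on low counts gave 5 members called of 51. With 5 libraries, 2 members were called on junction reads and 0 other translation genes in place of 1. With DESeq2 and limma-voom 4 members were called, with RLE size factors and without TMM 5, without the filter 6, and with copies summed 4. The median log2 fold change of the members stayed between 0.0013 and 0.13 and the small to large difference between 0.01 and 0.06, the lowest of each without WT 1118. For the 43 genes named with a fit, 624 single values kept their side of the threshold, 42 passed it only under an alternative, 23 lost it and none that was called reversed. Members with few counts, such as *Rps6* and *Fau*, carry a large counting error. Copies held 84.4% and 98.4% of their summed counts, and the part of read assignment in these low counts was not tested.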
